A study of Homo sapiens with 6 samples.

Results

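The TNF and NF-kB genes described here are 46 genes listed by name and role, with earlier results of these data known, as receptors and adaptors of tumor necrosis factor (TNF), kinases and subunits of the NF-kB system, its inhibitors, and the chemokines, cytokines and other genes that this system is known to induce. Of the 46, 43 are among the 28563 genes of the deposited table, and 39 had a mean of at least 0.5 FPKM (fragments per kilobase of gene, scaled to the size of the library) over the libraries and were tested among 14400 genes. CXCL1, CXCL5 and CSF2 were not analysed here, and CXCL3, CCL20, IL1A and IL1B were below the minimum. The libraries came from cells labelled HepG2, an established human line from a liver cancer, grown in separate dishes of 1 line, so the errors measure the spread between dishes. The treated dishes received polydatin (PD), a plant compound that is a glucoside of resveratrol, at 336 µM by the sample labels, and the control dishes received its solvent DMSO, with 3 libraries per group collected after 24 h. The study's methods give a slightly lower dose of PD than the labels do. Worked back from the FPKM, the DMSO libraries held 16763318 to 17274927 fragments each and the PD libraries held 16308476 to 18071632.

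The cell type was checked against 20 genes typical of hepatocytes, of which 11 are in the table. CPS1, an enzyme of the urea cycle, and RBP4, which carries retinol, were the only ones to reach 1 FPKM in any library, and the other 9, including APOA1, SERPINA1, TF and HNF4A, stayed at or below 0.172 FPKM. The summed level of the hepatocyte list, nearly all of it CPS1, was 222 to 229 FPKM in DMSO and 107 to 113 in PD. RBP4 went the other way, from 0.391 ± 0.0803 to 1.30 ± 0.376 FPKM (SD, n = 3 each, adjusted p = 0.0027, limma). None of 5 immune markers in the table, PTPRC not being among them, reached 1 FPKM, and their sum was 0.156 to 0.456 FPKM in DMSO and 0.176 to 0.202 in PD. Endothelial markers summed to at most 0.0801 FPKM, and the fibroblast list, mainly COL1A1, to 4.40 to 5.29 FPKM in DMSO and 4.75 to 5.05 in PD. Apart from CPS1, which was abundant, the hepatocyte markers that could be checked were thus low or nearly absent. ALB, AFP, APOB, TTR and APOH could not be checked. This leaves the identity of the cells in doubt, and HepG2 is used only as the name on the labels. In bulk RNA, fewer cells of a kind and less RNA per cell cannot be told apart.

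TNF binds receptors on the cell surface, which gather the adaptors TRADD and TRAF2, the kinase RIPK1 and the ubiquitin ligases BIRC2 and BIRC3 into a complex. This complex activates the IKK kinases, which mark the IkB proteins for destruction and so free NF-kB dimers to enter the nucleus. Among the genes that NF-kB induces are its own inhibitors, such as NFKBIA and TNFAIP3, which end the response, and secreted chemokines and cytokines, which carry it to other cells.

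Most of these genes were lower after PD, and a few, among them both receptors and the adaptors TRADD and RIPK1, were higher. In PD-treated cells, 27 of the 39 tested members were lower and 8 were higher than in DMSO (limma on log2(FPKM + 1), threshold 0.05 for p adjusted by Benjamini-Hochberg over all genes tested). Over all 14400 genes tested, 58.1% passed this threshold, 26.2% as lower and 31.9% as higher, against 69.2% lower and 20.5% higher among the members. With a change of at least 2-fold on the log2(FPKM + 1) scale added, 10 members were downregulated DEGs (25.6%, where 1.57% of all tested genes were) and 0 were upregulated (2.04% of all tested genes), while 3.61% of all tested genes passed in either direction. These counts depend on the pseudocount, and with 0.1 in place of 1 they were 11 and 3 members and 550 and 698 of all 14400 genes. The 10 were CXCL8, TNFAIP3, IL6, BCL3, BIRC3, CXCL2, TNFAIP2, TRAF1, NFKBIA and TNF. The 8 higher members were TRADD, RIPK1, IL11, TNIP2, TNFRSF1B, TNFRSF1A, IKBKG and RELA, and the 4 not called were CHUK, NFKBIB, PTGS2 and TNFAIP8. The median log2 fold change was -0.46 over the tested members and 0.01 over all tested genes. Mean FPKM in PD ran from 3.23% to 87.4% of that in DMSO among the 27 lower members, with a median of 56.7%. The groups did not overlap in 35 tested members, with PD below DMSO in 27 and above it in 8, and over all tested genes they did not overlap in 65.4%, with PD below in 29.9% and above in 35.6%. With a pseudocount of 0.1 or with voom on fragments, TRADD, RIPK1 and IL11 also passed 2-fold as upregulated. The calls of RELA, IKBKG, IKBKB and IER3, whose changes were 0.20 or less in size on the log2 scale, were each lost under some settings.

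**Figure D1:**
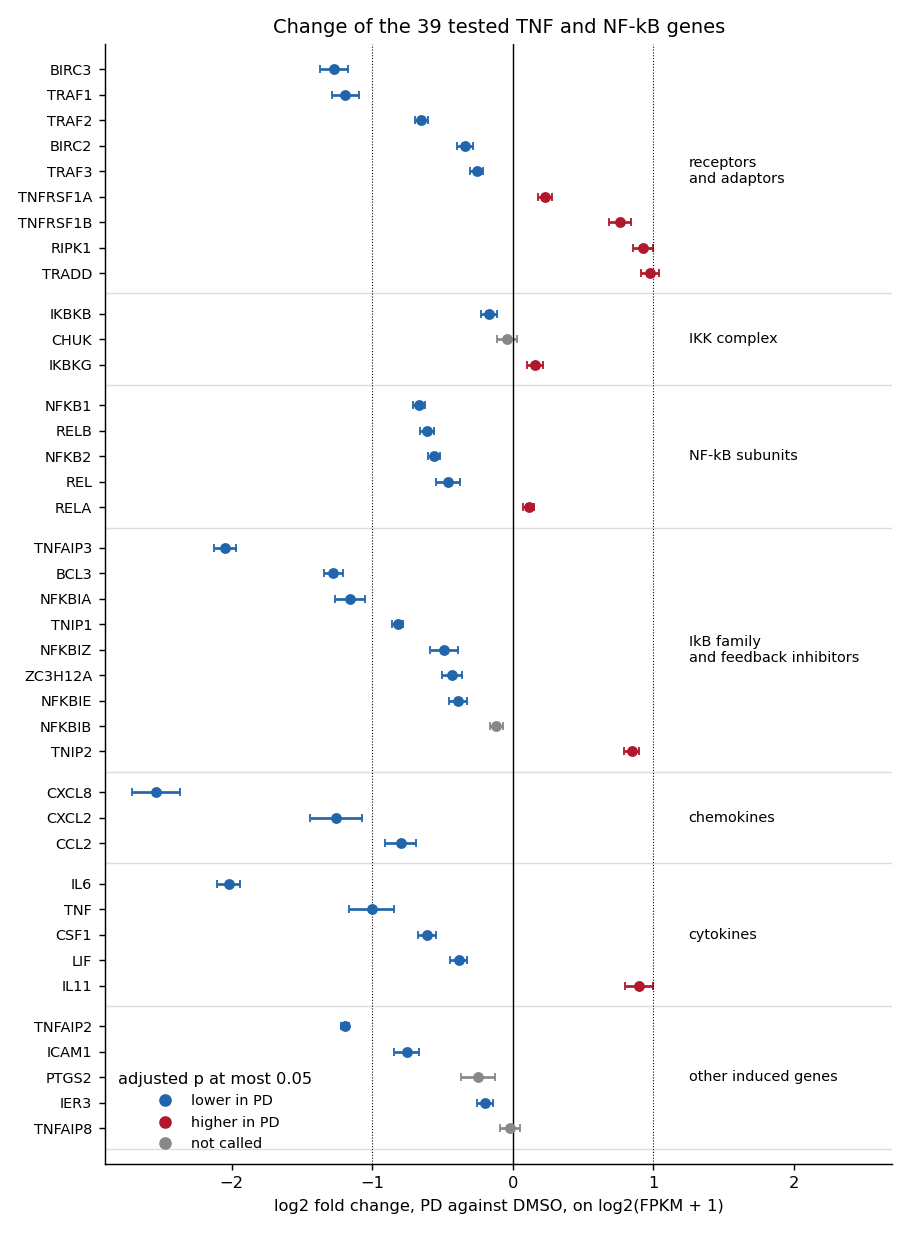
Log2 fold change of each of the 39 tested members between PD and DMSO on the log2(FPKM + 1) scale, grouped by role, with bars for the standard error of the fit (n = 3 libraries per group) and dotted lines at a 2-fold change. CXCL8 at -2.54, TNFAIP3 at -2.05 and IL6 at -2.02 lie furthest to the left, and TRADD at 0.97 lies furthest to the right.

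**Figure D2:**
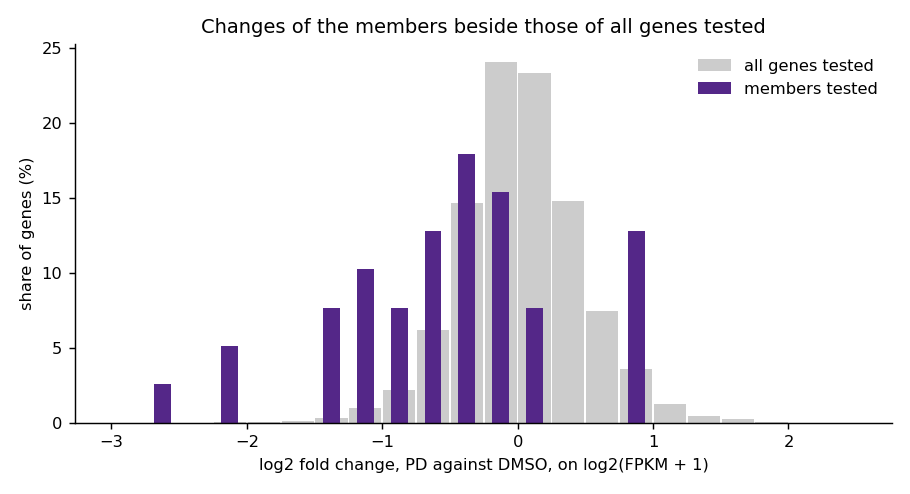
Share of genes, in percent, per bin of 0.25 of the log2 fold change on the log2(FPKM + 1) scale, for all 14400 genes tested (wide grey bars) and the 39 tested members (narrow bars). Changes of -0.5 or less were found in 46.2% of the members and 9.99% of all genes, and changes of 0.5 or more in 12.8% and 13.1%.

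Many of the members are known as direct NF-kB targets. The promoters of the members were read from the RefSeq table (GRCh38.p14), which holds windows from 250 bases before to 50 bases after the annotated start for 38 of the 46 members. The windows were searched on both strands for exact matches to a kB consensus bound by NF-kB and to TGACTCA, the motif of AP-1. The kB consensus was GGGRNNYYCC, where R is A or G, Y is C or T and N is any base. Overlapping matches were counted as 1. A kB match was present in 17 of the 38 members (44.7%), where 17.2% of 9809 tested genes with a window and 11.3% of all 35116 windows had one. Of the 20 lower members with a window 12 (60.0%) held a kB match, and of the 7 higher members 0 did. Many members were listed because NF-kB is known to induce them, so an excess of matches was partly built in and is no test. With 7 genes, and a share of 17.2% in tested genes, 0 cannot be read as an absence. TRADD, IKBKB, RELB, NFKBIE, CCL2, LIF, CSF1 and IER3 have no window. The AP-1 motif was in 1 of the 20 lower members (5.0%) and 2 of the 7 higher members (28.6%), where 4.54% of tested genes had it. With 7 genes, 2 cannot be read as an excess. The 2 were IL11 and IKBKG, and the call of IKBKG was lost under some settings. Over all tested genes the share with a kB match was 17.6% among lower and 17.9% among higher genes. These matches describe letters and say nothing of binding in these cells. A gene with several windows was counted as holding a motif if any window did.
The bases just before the start are shown for some of the members that moved, chosen mostly to show matches, with kB and AP-1 matches in capitals. The windows of TNF, TRAF1 and TNFAIP2, which also fell by 2-fold, hold a match to neither motif and are not shown. TNFAIP3 (chr6:137867109-137867258, plus strand) has 2 kB matches, at -67 to -58 and -55 to -46 from the start. NFKBIA (chr14:35404750-35404899, minus strand) has 1 at -81 to -72, BIRC3 (chr11:102317284-102317483, plus strand) has 2 at -199 to -190 and -135 to -126, and IL6 (chr7:22727050-22727199, plus strand) has 1 at -73 to -64. For IL6 the start is that of RefSeq, and GENCODE also lists transcripts that begin further upstream.
TNFAIP3: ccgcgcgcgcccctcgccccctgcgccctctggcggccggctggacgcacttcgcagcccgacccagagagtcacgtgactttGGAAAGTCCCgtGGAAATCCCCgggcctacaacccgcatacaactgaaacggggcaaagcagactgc
NFKBIA: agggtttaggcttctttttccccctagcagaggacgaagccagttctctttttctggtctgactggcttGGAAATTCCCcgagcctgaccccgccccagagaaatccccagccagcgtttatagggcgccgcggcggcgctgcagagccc
BIRC3: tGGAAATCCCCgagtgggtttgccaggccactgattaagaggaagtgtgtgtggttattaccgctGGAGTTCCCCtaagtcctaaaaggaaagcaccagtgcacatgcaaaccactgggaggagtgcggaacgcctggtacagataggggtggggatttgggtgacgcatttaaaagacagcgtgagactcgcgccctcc
IL6: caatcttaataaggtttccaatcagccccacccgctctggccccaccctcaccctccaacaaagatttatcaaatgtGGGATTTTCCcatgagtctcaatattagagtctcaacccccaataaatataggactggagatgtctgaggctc
CXCL2 (chr4:74099196-74099345, minus strand) and its neighbor and paralog CXCL3 (chr4:74038690-74038839, minus strand) carry the same 11 letters, GGGAATTTCCC, at nearly the same distance from the start, and their 150 bases before the start are identical at 88 positions (58.7%) when compared without gaps.
CXCL2: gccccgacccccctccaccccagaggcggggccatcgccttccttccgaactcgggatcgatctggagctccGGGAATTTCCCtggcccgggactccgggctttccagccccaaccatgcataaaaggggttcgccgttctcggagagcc
CXCL3: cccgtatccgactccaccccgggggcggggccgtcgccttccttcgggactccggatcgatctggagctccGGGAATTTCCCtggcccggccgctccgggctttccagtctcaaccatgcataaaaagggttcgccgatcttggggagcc
In CXCL8 (chr4:73740419-73740568, plus strand), the window holds no exact match to this kB consensus and 1 AP-1 match at -137 to -131. It does hold the letters tggaatttcc, which depart from the consensus only at the first base. The lack of an exact match thus does not mean that CXCL8 lacks a kB site. IL11 (chr19:55370464-55370613, minus strand) and TNIP2 (chr4:2756337-2756486, minus strand) are shown as members that rose. IL11 has 1 AP-1 match at -96 to -90, on the opposite strand, and TNIP2, with a GC content of 84.7%, has an exact match to neither motif. TNIP2 does hold the letters ggaaagttcc, which depart from the kB consensus only at the third base. The lack of an exact match thus does not mean that TNIP2 lacks a kB site either. Near matches were not searched for across the windows.
CXCL8: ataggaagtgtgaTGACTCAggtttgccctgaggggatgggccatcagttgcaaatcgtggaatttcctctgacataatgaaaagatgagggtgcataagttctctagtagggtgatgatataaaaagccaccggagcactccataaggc
IL11: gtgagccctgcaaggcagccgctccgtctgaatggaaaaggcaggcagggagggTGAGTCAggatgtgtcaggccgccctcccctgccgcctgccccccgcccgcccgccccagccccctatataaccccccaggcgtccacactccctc
TNIP2: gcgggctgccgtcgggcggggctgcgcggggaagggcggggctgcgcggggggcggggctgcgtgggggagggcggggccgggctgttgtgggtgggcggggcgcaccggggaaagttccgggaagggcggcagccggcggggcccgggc

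The secreted members included the deepest falls, that of CXCL8 on the log2(FPKM + 1) scale and that of TNF, to 3.23% of the DMSO level, as a ratio of FPKM. All 3 tested chemokines fell, and so did 4 of the 5 tested cytokines, while IL11 rose. Lower genes were thus 87.5% of the 8 tested secreted members, beside 26.2% of all tested genes. The median log2 fold change was -1.26 for the chemokines and -0.61 for the cytokines. CXCL8, the main attractant of neutrophils, had 8.25, 7.32 and 4.96 FPKM in DMSO replicates 1, 2 and 3 and 0.243, 0.226 and 0.539 FPKM in PD replicates 1, 2 and 3. Every PD library was thus far below every DMSO library. The mean fell from 6.84 ± 1.69 to 0.336 ± 0.176 FPKM (SD, n = 3 each), 4.91% of the DMSO level, and the log2 fold change was -2.54 (SE 0.17, adjusted p = 2.3e-05, limma). On the deposited scale this is 20.4-fold, a larger change than in the fit, because adding 1 to each FPKM shrinks the changes of low genes. CXCL2, another neutrophil attractant, had 5.21, 3.62 and 2.77 FPKM in DMSO and 0.775, 1.29 and 0.940 FPKM in PD, with a log2 fold change of -1.26 (SE 0.19, adjusted p = 8.8e-04, limma). Its DMSO libraries spread more widely than those of most members, but none reached down to the PD libraries.
CXCL3 was below the minimum for the test, and its promoter holds the same kB letters as that of CXCL2, shown above. It had 0.991, 0.887 and 0.527 FPKM in DMSO and 0.150, 0.206 and 0.138 FPKM in PD, which rest on 91 and 19 fragments summed over each group. Voom on fragments gave it a log2 fold change of -2.17 (adjusted p = 5.5e-05). CXCL2 and CXCL3 are close paralogs that lie 58232 bases apart on chromosome 4, so reads shared between them could have been left out or assigned to either. CCL2, which attracts monocytes, fell from 1.50 ± 0.213 to 0.440 ± 0.129 FPKM (SD, n = 3 each), and the fit gave -0.80 on the log2 scale (adjusted p = 6.4e-04, limma). CCL20, which attracts cells with the receptor CCR6, was counted with 28 fragments in DMSO and 2 in PD, a ratio of 14.2 with an exact 95% interval of 3.58 to 123 that covers counting error only.

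Among the cytokines, IL6, a driver of the acute phase response of the liver, fell to a similar share of its DMSO level as CXCL8. It had 4.11, 3.86 and 3.70 FPKM in DMSO and 0.160, 0.165 and 0.296 FPKM in PD, or 5.33% of the DMSO level. The groups lay far apart, and the log2 fold change was -2.02 (SE 0.08, adjusted p = 3.6e-06, limma). TNF, the ligand that starts this pathway, was of low abundance in the control cells and close to 0 after PD, with 1.62, 0.925 and 0.767 FPKM in DMSO and 0, 0.0340 and 0.0732 FPKM in PD. These values stand on 95 fragments in DMSO and 3 in PD, a ratio of 32.1 with an exact 95% interval of 10.7 to 159 for counting error. The log2 fold change of TNF was -1.0 (SE 0.16, adjusted p = 0.0013, limma), which just reaches 2-fold, and it was -0.83 without DMSO replicate 1 and -0.98 without PD replicate 1.
IL11, a cytokine of the IL6 family that signals through the same coreceptor IL6ST, moved the other way. It had 0.303, 0.424 and 0.438 FPKM in DMSO and 1.45, 1.84 and 1.47 FPKM in PD, 408% of the DMSO level, with a log2 fold change of 0.89 (SE 0.10, adjusted p = 2.2e-04, limma). All PD libraries were above all DMSO libraries. LIF, also of that family, fell from 7.54 ± 0.477 to 5.54 ± 0.337 FPKM (SD, n = 3 each), and the fit gave -0.39 on the log2 scale (adjusted p = 0.0013, limma). CSF1, the growth factor of macrophages, fell from 7.28 ± 0.485 to 4.42 ± 0.257 FPKM (SD, n = 3 each), and the fit gave -0.61 on the log2 scale (adjusted p = 1.5e-04, limma). Both stayed well above the other secreted members in PD.
The interleukin 1 genes were at the limit of this depth. IL1A was counted with 57 fragments in DMSO and 18 in PD, and voom on fragments gave a log2 fold change of -1.64 (adjusted p = 7.7e-04). IL1B had 16 and 12 fragments, and the exact 95% interval of its ratio, 0.601 to 3.13, covers change in either direction. Immune markers, as given above, were near 0 in every library of both groups.

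**Figure D3:**
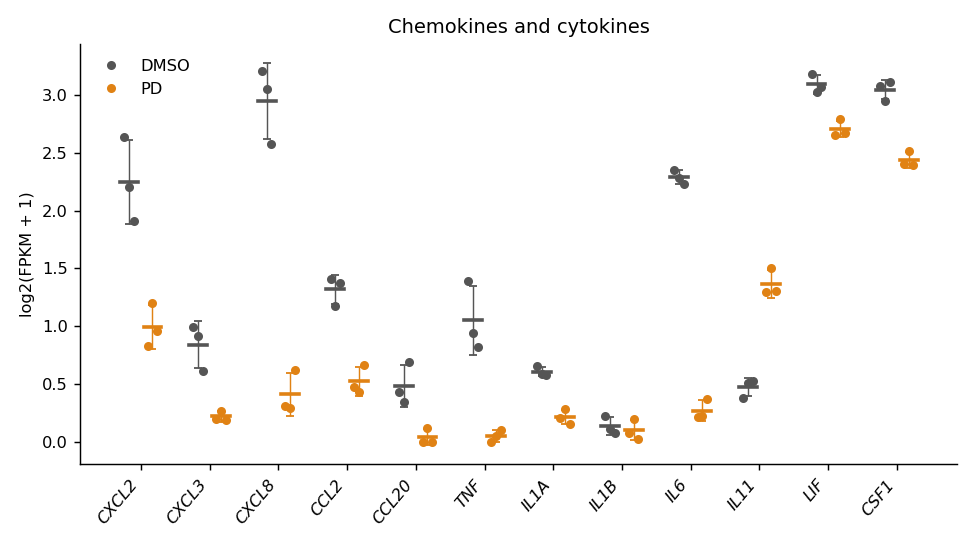
Level of the 12 chemokine and cytokine genes in the table as log2(FPKM + 1), with a point per library, a line at the group mean and bars of 1 SD (n = 3 per group). CXCL8 and IL6 drop from among the more abundant to near 0, LIF and CSF1 fall by less, and IL11 is higher in all 3 PD libraries.

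Most genes of the IkB family and the feedback inhibitors fell. Of the 9 members listed in this role, 7 fell, TNIP2 rose and NFKBIB was not called, and the median log2 fold change was -0.49. The role is not one of inhibitors alone, as NFKBIZ promotes IL6 transcription. TNFAIP3, the enzyme that edits ubiquitin chains on RIPK1 and other adaptors and lies on chromosome 6 from 137867214 to 137883314 (plus strand, GRCh38), had the largest fall of them. TNFAIP3 had 43.5, 43.8 and 41.4 FPKM in DMSO and 8.36, 10.5 and 10.0 FPKM in PD, or 22.5% of the DMSO level. The libraries of each group were close together and the groups lay far apart, and the log2 fold change was -2.05 (SE 0.08, adjusted p = 3.2e-06, limma). NFKBIA, the IkB protein that is resynthesized first after NF-kB activation, had 42.1, 42.7 and 39.3 FPKM in DMSO and 14.9, 21.0 and 18.6 FPKM in PD, a log2 fold change of -1.16 (SE 0.11, adjusted p = 9.8e-05, limma). BCL3, a nuclear member of the IkB family that binds NFKB1 and NFKB2 homodimers, had 11.8, 12.3 and 13.5 FPKM in DMSO and 4.40, 4.40 and 4.96 FPKM in PD, a log2 fold change of -1.28 (SE 0.07, adjusted p = 7.9e-06, limma). For NFKBIA and BCL3, too, no PD library reached the lowest DMSO library.
The other IkB genes changed by less. NFKBIE fell from 19.0 ± 0.688 to 14.3 ± 1.30 FPKM and NFKBIZ, a nuclear IkB protein that promotes IL6 transcription, from 2.55 ± 0.437 to 1.52 ± 0.0983 FPKM (SD, n = 3 each), with log2 fold changes of -0.39 and -0.49 and adjusted p of 0.0018 and 0.0047 (limma). NFKBIB had 34.0 ± 1.60 FPKM in DMSO and 31.2 ± 1.01 FPKM in PD (SD, n = 3 each), with an adjusted p of 0.056 (limma) and a log2 difference between -0.22 and -0.01 at 95% confidence. Scaling by the upper quartile (adjusted p = 0.018) or by median-of-ratios factors (adjusted p = 0.040, limma) called it as lower. ZC3H12A, a nuclease that degrades IL6 and other cytokine transcripts, fell by 0.43 on the log2 scale (adjusted p = 0.0014, limma).
TNIP1 and TNIP2, a pair of proteins that bind TNFAIP3 and ubiquitin, moved in opposite directions. TNIP1 fell from 38.1 ± 0.928 to 21.2 ± 0.844 FPKM (SD, n = 3 each), and the fit gave -0.82 on the log2 scale (adjusted p = 6.6e-06, limma). TNIP2 had 15.8, 16.5 and 17.8 FPKM in DMSO and 30.3, 29.9 and 32.4 FPKM in PD, a log2 fold change of 0.85 (SE 0.05, adjusted p = 1.7e-05, limma). In DMSO, TNFAIP3 was 2.57 ± 0.224 times as abundant as TNIP2 per length, and in PD it was 0.313 ± 0.0389 times as abundant (SD, n = 3 each, two-sided exact permutation p = 0.10, the smallest that 3 against 3 libraries can give). As both genes separated the groups, in opposite directions, this p was fixed in advance and is no further test. The order of the members of this role by FPKM changed, with TNFAIP3 and NFKBIA highest in DMSO and NFKBIB and TNIP2 highest in PD, where the last 2 did not differ beyond their spread.

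**Figure D4:**
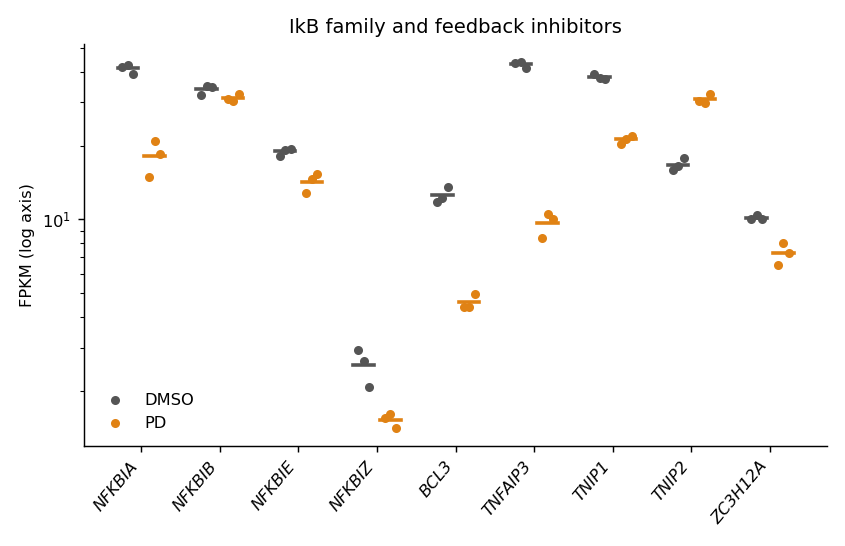
FPKM on a log axis of the 9 members of the IkB family and feedback inhibitors, with a point per library and a line at the group mean (n = 3 per group). TNFAIP3 shows the widest gap between DMSO and PD, and TNIP2 is the only one whose PD libraries are higher.

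At the receptors the direction was mixed, with TNFRSF1A, TNFRSF1B, TRADD and RIPK1 rising and TRAF1, TRAF2, TRAF3, BIRC2 and BIRC3 falling. All 9 receptors and adaptors were called, 4 higher (44.4%) and 5 lower (55.6%), beside 31.9% and 26.2% of all tested genes. TNFRSF1A, the receptor found on most cells, rose from 24.8 ± 1.17 to 29.2 ± 1.31 FPKM and TNFRSF1B from 3.95 ± 0.411 to 7.39 ± 0.502 FPKM (SD, n = 3 each), with log2 fold changes of 0.23 and 0.76 and adjusted p of 0.0052 and 1.3e-04 (limma). TRADD, the adaptor that docks on the death domain of TNFRSF1A, had 3.77, 3.53 and 4.24 FPKM in DMSO and 8.28, 8.58 and 8.65 FPKM in PD, a log2 fold change of 0.97 (SE 0.06, adjusted p = 1.9e-05, limma). RIPK1, the kinase and scaffold of the same complex, had 4.62, 4.50 and 4.16 FPKM in DMSO and 9.68, 8.43 and 9.87 FPKM in PD, a log2 fold change of 0.93 (SE 0.07, adjusted p = 3.4e-05, limma). In both genes the PD libraries lay well clear of the DMSO libraries, at 221% and 211% of the DMSO mean.
TRAF1 and BIRC3, both known NF-kB targets, fell the most among the adaptors. TRAF1, which lacks the ubiquitin ligase domain of its relatives, had 1.86, 2.25 and 2.25 FPKM in DMSO and 0.283, 0.425 and 0.390 FPKM in PD, or 17.3% of the DMSO level, with a log2 fold change of -1.19 (SE 0.09, adjusted p = 4.3e-05, limma). BIRC3 had 23.7, 24.5 and 18.8 FPKM in DMSO and 9.26, 8.20 and 8.41 FPKM in PD, a log2 fold change of -1.27 (SE 0.10, adjusted p = 4.0e-05, limma). Its DMSO replicate 3 was lower than the other two but still above all PD libraries. BIRC2, a related ubiquitin ligase whose gene starts 7807 bases after the end of BIRC3 on chromosome 11, fell by less, from 26.5 ± 1.17 to 20.8 ± 1.44 FPKM (SD, n = 3 each), and the fit gave -0.34 on the log2 scale (adjusted p = 0.0017, limma). The level of BIRC3 relative to BIRC2 went from 0.840 ± 0.0902 in DMSO to 0.415 ± 0.0110 in PD (SD, n = 3 each, two-sided exact permutation p = 0.10).
TRAF2, the adaptor that brings BIRC2 and BIRC3 to the receptor, was the most abundant gene of the complex. It fell from 94.2 ± 5.48 to 59.6 ± 1.36 FPKM (SD, n = 3 each), and the fit gave -0.65 on the log2 scale (adjusted p = 2.7e-05, limma). Since TRADD rose, TRAF2 was 24.6 ± 1.82 times as abundant as TRADD per length in DMSO and 7.02 ± 0.122 times in PD (SD, n = 3 each, two-sided exact permutation p = 0.10). Here, too, the opposite moves of the genes fixed this p in advance. TRAF3, which restrains the noncanonical branch of NF-kB, fell by 0.26 on the log2 scale (adjusted p = 0.0023, limma).

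The IKK kinases changed least of all the groups. IKBKB, the kinase that phosphorylates IkB proteins, had 8.01, 7.64 and 8.67 FPKM in DMSO and 6.85, 7.07 and 7.34 FPKM in PD, a log2 fold change of -0.17 with an adjusted p of 0.033 (limma). CHUK, its partner, had 7.46 ± 0.604 FPKM in DMSO and 7.23 ± 0.515 FPKM in PD (SD, n = 3 each), with an adjusted p of 0.65 (limma) and a log2 difference between -0.21 and 0.13 at 95% confidence. IKBKG, the regulatory subunit, had 3.77 ± 0.180 and 4.32 ± 0.162 FPKM (SD, n = 3 each), with a log2 fold change of 0.16 and an adjusted p of 0.043 (limma), which rose to 0.064 with the replicate number as a block. Its value is uncertain, because it has a near-identical pseudogene.
Of the 5 NF-kB subunits, 4 fell (80.0%, beside 26.2% of all tested genes). NFKB1 had 15.4, 16.5 and 16.0 FPKM in DMSO and 9.97, 9.67 and 9.42 FPKM in PD, a log2 fold change of -0.66 (SE 0.04, adjusted p = 1.9e-05, limma). NFKB2, the most abundant subunit, fell from 82.0 ± 2.43 to 55.3 ± 2.66 FPKM, RELB from 36.0 ± 0.694 to 23.3 ± 1.44 FPKM and REL from 1.64 ± 0.185 to 0.916 ± 0.0210 FPKM (SD, n = 3 each), by 0.56, 0.61 and 0.46 on the log2 scale with adjusted p of 3.7e-05, 4.5e-05 and 0.0025 (limma). RELA, the subunit that carries most canonical signaling, had 24.8 ± 0.935 FPKM in DMSO and 26.9 ± 0.857 FPKM in PD (SD, n = 3 each), and the fit gave 0.11 on the log2 scale, whose adjusted p of 0.0496 (limma) was 0.21 with upper quartile scaling and 0.13 with median-of-ratios scaling. By FPKM the order in DMSO was NFKB2, RELB, RELA, NFKB1 and REL, and in PD RELA stood above RELB. The ratio of RELB to RELA was 1.50, 1.44 and 1.42 in the DMSO libraries and 0.912, 0.815 and 0.874 in the PD libraries. Every PD library was lower in RELB and higher in RELA than every DMSO library, so the ratios had to separate. Their two-sided exact permutation p of 0.10 was thus fixed in advance and adds nothing to the values of the single genes.

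**Figure D5:**
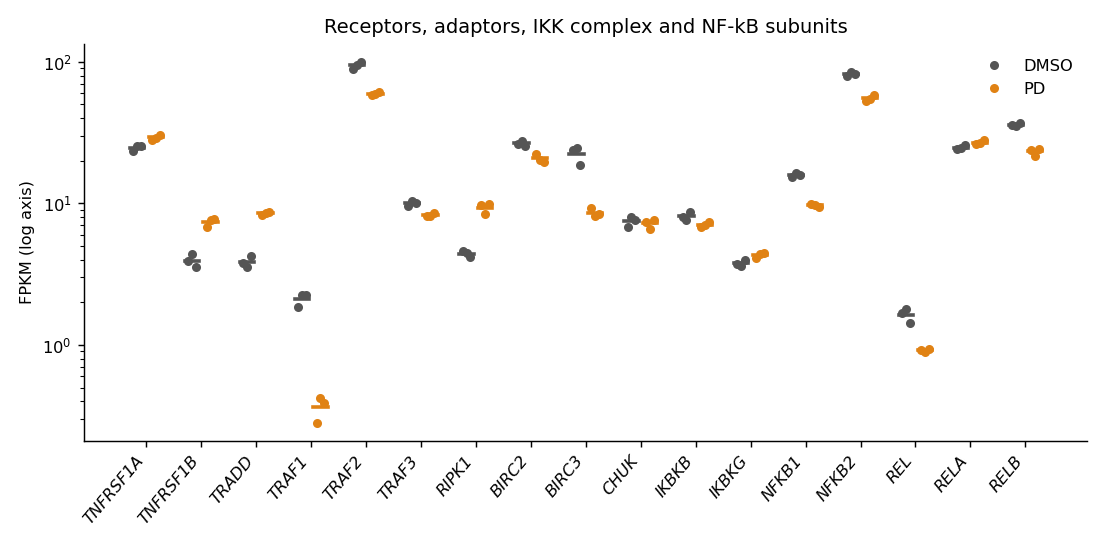
FPKM on a log axis of the 17 receptors, adaptors, IKK subunits and NF-kB subunits, with a point per library and a line at the group mean (n = 3 per group). TRADD, RIPK1 and TNFRSF1B are higher in PD, TRAF1 and BIRC3 show the widest falls, and CHUK overlaps between groups.

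Of the remaining induced genes, TNFAIP2 changed the most and with the least scatter. TNFAIP2, a TNF-induced gene whose protein takes part in the formation of membrane tubes between cells, had 93.8, 93.6 and 95.0 FPKM in DMSO and 40.3, 40.6 and 40.9 FPKM in PD, a log2 fold change of -1.19 (SE 0.03, adjusted p = 8.2e-07, limma). ICAM1, the adhesion molecule that leukocytes bind, fell from 13.7 ± 0.151 to 7.78 ± 1.13 FPKM (SD, n = 3 each), and the fit gave -0.75 on the log2 scale (adjusted p = 3.3e-04, limma). Not every known target moved in this way. PTGS2, the inducible cyclooxygenase, had 7.74 ± 1.66 FPKM in DMSO and 6.29 ± 0.228 FPKM in PD (SD, n = 3 each), with overlapping groups, an adjusted p of 0.12 (limma) and a log2 difference between -0.53 and 0.04 at 95% confidence. Voom on fragments called it as lower (adjusted p = 0.021), and so did limma without DMSO replicate 3 (adjusted p = 0.047). IER3, an immediate early gene, had 36.8 ± 2.12 and 32.0 ± 1.96 FPKM, and TNFAIP8, a TNF-induced inhibitor of cell death, had 2.41 ± 0.143 and 2.37 ± 0.215 FPKM (SD, n = 3 each), with adjusted p of 0.021 and 0.83 (limma).

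Whether the direction of the members extended to other genes of the pathway was examined in 114 further genes of 6 lists, of which 87 were tested. Of these, 29 were lower and 30 were higher by the same test (limma), 33.3% and 34.5% of those tested, beside 26.2% and 31.9% of all genes. Their median log2 fold change was 0.01, the same as that of all genes tested. The list of further response genes came closest to the members, with 12 of 21 tested genes lower (57.1%), 6 higher (28.6%) and a median of -0.27. Its changes past 2-fold were falls of EDN1, the vasoconstrictor endothelin 1, from 24.8 ± 2.58 to 2.75 ± 0.183 FPKM and of IL32, a cytokine induced by TNF, from 37.0 ± 1.64 to 14.8 ± 0.932 FPKM, and rises of TNFSF9, a ligand of the TNF superfamily, from 10.5 ± 0.371 to 34.0 ± 3.74 FPKM and of SPHK1, a sphingosine kinase, from 11.3 ± 0.605 to 24.7 ± 1.41 FPKM (SD, n = 3 each). Among IKK-activating kinases and ubiquitin editors, 8 of 20 were lower (40.0%) and 5 higher (25.0%). IKBKE, an IKK-related kinase of this list that NF-kB induces, fell by 0.97 on the log2 scale (adjusted p = 1.8e-05, limma).
The JNK and p38 branch, which TNF also activates, had 1 lower (7.7%) and 6 higher (46.2%) genes of 13 tested. Over all genes these shares were 26.2% and 31.9%. Receptor relatives and genes of the death branch had 3 lower (17.6%) and 6 higher (35.3%) genes of 17. The share of higher genes was near the 31.9% of all genes. Their median was 0.10, and no change passed 2-fold. CFLAR, an inhibitor of caspase 8 and a known NF-kB target, had the largest fall of that list, by 0.50 on the log2 scale (adjusted p = 6.4e-04, limma), from 1.95 ± 0.0756 to 1.08 ± 0.0198 FPKM (SD, n = 3 each), and it overlaps an antisense gene.

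Counting was not stated to use strand, and exons of 18 of the 43 members overlap another annotated gene, 13 of them on the opposite strand. Among the 10 downregulated DEGs this touches TNFAIP3, BIRC3, TNFAIP2 and IL6, which overlap antisense genes, and BCL3, which contains a microRNA gene. How fragments in such shared stretches were counted is not given, so these values may be too high or too low. Of the members that rose, RIPK1 overlaps a gene on the opposite strand and TNFRSF1B one on the same strand.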

How the data were processed

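The authors selected poly(A) RNA, made paired-end libraries (NEBNext Ultra kit), aligned them with HISAT2 to the hg38 build, took gene counts from HTSeq 0.6.0, and deposited FPKM. The annotation release and strand setting are not given in the sources used here. All value columns of the deposited FPKM table matched a sample by its title. Symbols and coordinates came from GENCODE release 44 (GRCh38), in which 28161 of 28563 identifiers matched.

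Genes whose FPKM averaged 0.5 or more were tested on log2(FPKM + 1) with limma 3.58.1 (R 4.3.3, intensity trend), PD against DMSO without covariates, with Benjamini-Hochberg adjustment over all tested genes. The pseudocount understates changes of low genes. A DEG had to pass 0.05 for the adjusted p and 2-fold for the change. Whole fragments were worked back from FPKM (tolerance 1e-06) for depth, exact intervals and limma voom, which kept genes with at least 10 fragments in 3 or more libraries. Intervals at 95% confidence on ratios of fragments are exact binomial ones. Permutation tests used scipy 1.17.1. Within groups, the chi-square statistic between libraries was 2.32 to 3.80 per gene, where sampling noise gives about 1, so none was a duplicate. The fits were first tested on simulated data, in which only more abundant genes were changed, and by more than 2-fold. That test does not cover low genes or smaller changes.

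Values in every library were given for members past 2-fold and for the largest change in each role. From each wider list the 2 largest changes past 2-fold were named. TRADD, RIPK1, TNIP2, IL11, CXCL3, the gene ratios and, among other genes, IL32, SPHK1, IKBKE, CFLAR, ZFP36 and the cytokine receptors were added after their values had been seen, as were the promoters shown. The members and lists were chosen with earlier results of these data known, so no test over a list was made.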

Additional observations from a re-analysis of the deposited data

How the results depend on the processing

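The 27 lower members became 27 with a pseudocount of 0.1, 28 without a filter on FPKM or with either scaling, 30 with voom on fragments and 25 to 27 with any 1 library left out. Without a filter and with voom, some members below the minimum were tested too, so those counts are of more genes. Without a filter, IKBKB and IER3 lost their calls as lower. With voom, CXCL3 and IL1A were counted as lower, and by more than 2-fold. The 8 higher members became 6 to 8 under all these settings. The 10 members lower by 2-fold became 11 with a pseudocount of 0.1, 13 with voom and 9 to 10 with a library left out, 9 of them without DMSO replicate 1 or PD replicate 1, where TNF was short of 2-fold. The number higher by 2-fold moved from 0 to 3 with a pseudocount of 0.1 and with voom, and was 0 to 1 with a library left out (TRADD without DMSO replicate 3). In the NF-kB subunits the number of higher genes was 0, not 1, with a pseudocount of 0.1 and with either scaling, and in the IKK complex it was 0, not 1, with either scaling and with voom. No member that was called changed sign.

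Over all genes, 294 were upregulated and 226 downregulated at 2-fold, against 698 and 550 with a pseudocount of 0.1 and 1013 and 725 with voom. At the adjusted p alone, scaling by the upper quartile gave 4167 higher and 4264 lower genes in place of 4588 and 3780. With the replicate number as a block, 26 members were lower, 7 higher and 10 lower by 2-fold. PD and DMSO libraries of the same number deviated with correlations of -0.03, -0.005 and 0.09 over 14400 genes, and DMSO replicate 1 was most like PD replicate 2, so the numbers were not taken as pairs. Genes with few fragments, such as TNF, CCL20 and IL1B, are limited by depth.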

Other observations

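Of 9 genes for proteins that control the stability of cytokine transcripts, 3 were lower (33.3%) and 2 higher (22.2%) in PD (limma), beside 26.2% and 31.9% of all tested genes. HNRNPD, which binds AU-rich elements and promotes decay of the transcripts that hold them, fell from 58.8 ± 1.77 to 25.1 ± 1.49 FPKM (SD, n = 3 each), and the fit gave -1.20 on the log2 scale (adjusted p = 3.6e-06, limma). ZFP36, another protein that promotes such decay, rose from 4.63 ± 0.00641 to 7.65 ± 0.680 FPKM (SD, n = 3 each), and the fit gave 0.62 on the log2 scale (adjusted p = 1.6e-04, limma). Whether these genes bear on the levels of the cytokines was not tested.

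Of the receptors for cytokines of this kind, 7 were tested, and 5 were higher and 2 lower in PD (limma), beside 31.9% higher and 26.2% lower over all tested genes. IL11RA rose as its ligand IL11 did, LIFR fell as LIF did, and IL6R rose by 0.26 on the log2 scale (adjusted p = 0.0068, limma) where IL6 fell. CSF2RA, a receptor chain for CSF2, rose from 26.7 ± 1.59 to 38.9 ± 1.20 FPKM and IL11RA, the receptor of IL11, from 0.699 ± 0.188 to 1.26 ± 0.141 FPKM (SD, n = 3 each), with adjusted p of 9.9e-05 and 0.014 (limma). IL11RA overlaps CCL27 on the opposite strand. LIFR fell from 42.7 ± 1.46 to 34.7 ± 2.25 FPKM and the shared coreceptor IL6ST from 21.4 ± 1.43 to 18.9 ± 0.831 FPKM (SD, n = 3 each), with adjusted p of 0.0024 and 0.036 (limma).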
